A study of Mus musculus with 6 samples.

Results

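The genes described here are 9 chemokines, Cxcl12, Cxcl1, Cxcl5, Cxcl16, Ccl2, Ccl5, Ccl7, Ccl20 and Cx3cl1, and the cytokine Il6, which make up 10 of the 19505 genes named on the array. They were taken by symbol, and each had 1 probe set. The series holds 6 arrays (Affymetrix Clariom S, mouse), 2 for each of 3 lines built on melan-a, immortalized C57BL/6J melanocytes. The mVec line carries a control vector (titled CD516B2) and is labelled as melanocytes, while mKitK641E(T), titled C3#, and mKitK641E(PT), titled hi exp, are labelled as carrying c-kit(K641E) and as melanoma. They are called T and PT, or the Kit lines after their labels, and the sources used here do not say what T, PT and the titles stand for. All lines were kept in RPMI with 10% serum and received no treatment. Each group is 1 line and the labels do not say whether its arrays are separate cultures, so every p-value measures the spread between arrays of a line, which may be technical.

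Chemokines are small secreted proteins that guide leukocytes and other cells through G-protein-coupled receptors, and their families (CC, CXC, CX3C) are named for the spacing of their first cysteines. Most of the genes followed here, Il6 among them, are classical targets of NF-kappaB, often together with C/EBP and AP-1 factors. Cxcl12 is instead a homeostatic chemokine typical of stromal cells. In melanoma, Cxcl1 is known as melanoma growth stimulatory activity, and Il6 acts on cells through the shared receptor chain gp130.

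The stretch before the start of transcription is shown for Cxcl12, Cx3cl1 and Cxcl1, which were lower in both Kit lines than in mVec, and for Il6, which differed between the Kit lines. Each line gives the 250 bases upstream of the start, 5' to 3' on the plus strand, from RefSeq promoters of assembly GRCm38.p6, which held 5 of the 10 genes (Ccl20 is the other one). Cxcl5, Cxcl16, Ccl2, Ccl5 and Ccl7 were not matched. Capitals mark matches, on either strand, to GGNNNTTCC (part of kappaB sites), TTNNGNAA (C/EBP-like), TGANTCA (AP-1) and GAAANNGAA (part of interferon response elements), searched from 250 bases before to 50 after the start.
Cxcl12, chr6:117168285-117168534: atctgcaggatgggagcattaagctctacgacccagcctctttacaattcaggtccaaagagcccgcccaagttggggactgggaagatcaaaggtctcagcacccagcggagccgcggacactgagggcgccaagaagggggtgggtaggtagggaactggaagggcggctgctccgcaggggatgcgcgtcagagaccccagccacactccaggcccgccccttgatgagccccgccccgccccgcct
Cx3cl1, chr8:94771930-94772179: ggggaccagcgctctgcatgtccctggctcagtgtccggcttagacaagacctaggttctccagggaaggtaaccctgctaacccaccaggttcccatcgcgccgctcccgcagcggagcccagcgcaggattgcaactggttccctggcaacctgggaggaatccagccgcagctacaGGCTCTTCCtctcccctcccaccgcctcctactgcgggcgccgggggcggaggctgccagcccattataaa
Cxcl1, chr5:90890995-90891244: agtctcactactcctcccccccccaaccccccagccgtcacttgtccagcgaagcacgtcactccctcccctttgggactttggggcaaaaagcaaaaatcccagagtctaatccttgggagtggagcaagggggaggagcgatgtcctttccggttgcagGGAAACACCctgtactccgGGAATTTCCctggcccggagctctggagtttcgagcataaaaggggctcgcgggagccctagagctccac
Il6, chr5:30012864-30013113: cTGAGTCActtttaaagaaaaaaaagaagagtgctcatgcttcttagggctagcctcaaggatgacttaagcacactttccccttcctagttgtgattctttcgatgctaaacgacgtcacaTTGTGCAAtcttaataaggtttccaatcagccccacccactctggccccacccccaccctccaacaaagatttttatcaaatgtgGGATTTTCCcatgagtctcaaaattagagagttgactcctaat

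The kappaB-like letters occurred in 4 of the 5 promoters and in 18.5% of the 32851 promoters of the table. Cxcl1 had 2 such matches, GGAAACACC at positions -89 to -81 (read on the minus strand) and GGAATTTCC at -70 to -62, which matches on both strands. Il6 had GGATTTTCC at -43 to -35, a C/EBP-like TTGTGCAA at -128 to -121 and an AP-1 match TGAGTCA at -249 to -243. The table-wide shares are 40.7% for the C/EBP-like letters and 7.81% for the AP-1 letters. Cx3cl1 had GGCTCTTCC at -71 to -63 and Ccl20 had GGAAAACCC at -80 to -72 on the minus strand. No match to the 4 motifs was found in the Cxcl12 window, and GAAANNGAA, present in 8.56% of promoters, was found in none of the 5. A match describes letters and says nothing about binding in these cells.

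Of the 10 genes, 4 lay above background on both mVec arrays: Cxcl12, Cx3cl1, Ccl2 and Ccl5. In PT, 1 of them did (Ccl5), and in T Ccl5 passed on 1 of 2 arrays. A value counts as above background where it exceeds 95% of the 5222 negative controls of its array (limits of 8.74 to 9.16 on the log2 scale), and 29.0% to 32.6% of the 22206 gene probe sets per array exceeded it. With the 99th percentile (12.15 to 13.07), Cxcl12 in mVec was the 1 member left above background. In bulk RNA, fewer cells making a transcript and less of it per cell cannot be told apart.

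The labelled cell type was checked against marker genes. Of 10 melanocyte markers, summed to 42.46 to 44.57 on the log2 scale, 9 were above background on no array, among them Tyr and Kit, while Mitf passed on the T arrays alone. Kit, under the limits throughout, read 4.68 and 4.97 in mVec, 4.53 and 3.84 in PT, and 4.53 and 5.18 in T, so it was no higher in either Kit line (T minus mVec 0.03 ± 0.30, adjusted p = 0.956, PT minus mVec -0.63 ± 0.30, 0.141) and gives no check of the labels. Of 9 fibroblast markers, 6 were above background on each mVec array, 3 on each T array, and 1 and 2 on the PT arrays. The marker values do not bear out the melanocyte label, and the lines are named by label only. The summed log2 level of the fibroblast markers was 104.65 to 104.80 in mVec, 64.79 to 65.47 in T and 58.38 to 60.29 in PT, with Postn and Col1a1 at background in both Kit lines. In each Kit line, 7 of the 9 were called lower than in mVec and 1, Col1a2, higher. Col1a2 read 5.06 and 5.08 in mVec and 9.12 to 9.33 on the Kit-line arrays. The 7 lower markers moved with Cxcl12, Cx3cl1, Ccl2 and Ccl5 below, and the part of the fibroblast markers in those differences was not tested. None of 8 leukocyte markers, summed to 35.40 to 38.86, was above background on any array, Ptprc among them, nor were any of 6 keratinocyte markers (25.75 to 29.25). Of 6 endothelial markers (24.57 to 31.72), Cdh5 alone was above background, in mVec.

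**Figure D1:**
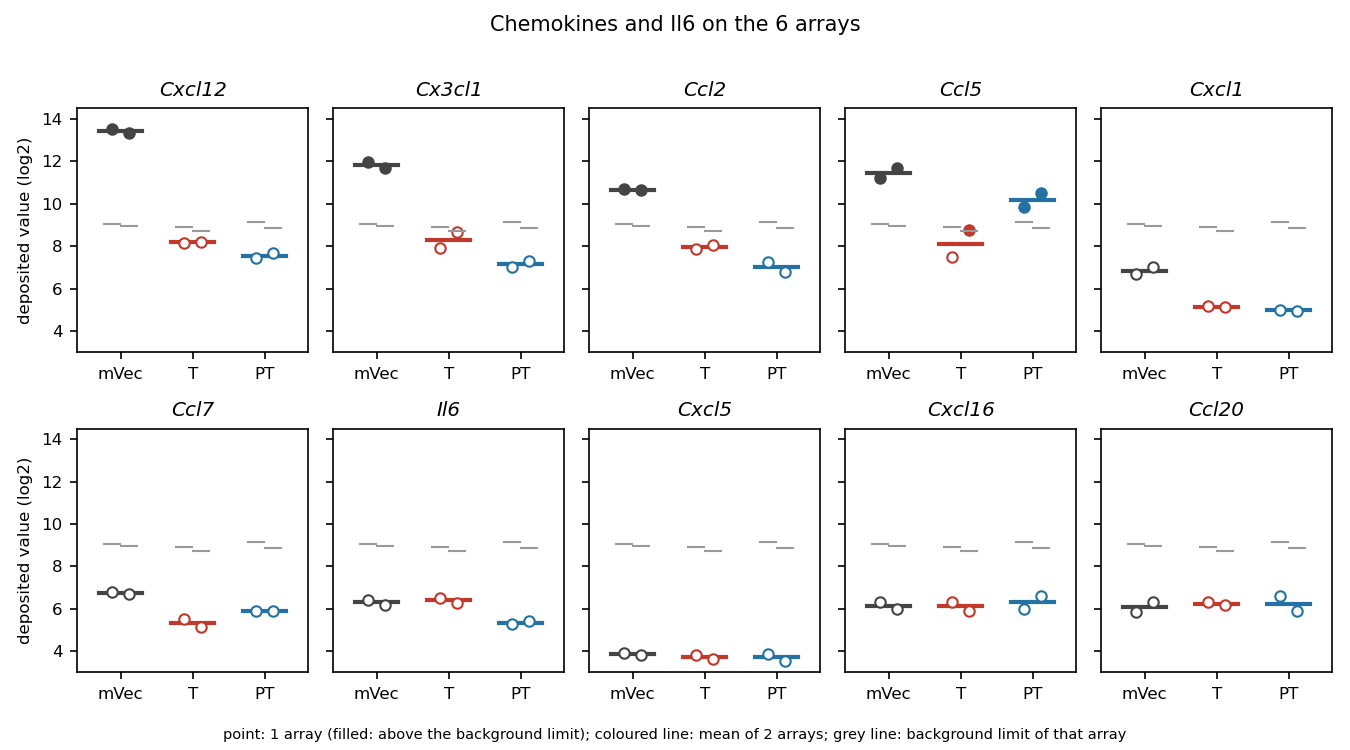
Deposited log2 value (vertical axis) of the 10 genes on the 6 arrays, by line (horizontal axis). Each point is 1 array, filled where above that array's background limit (grey line), and the coloured line is the mean of the 2 arrays; Cxcl12, Cx3cl1, Ccl2 and Ccl5 are filled in mVec, with Ccl5 filled on both PT arrays and on 1 T array.

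Against mVec, 6 of the 10 genes were lower in T and 7 in PT, at an adjusted p under 0.05 in limma (termed called). Over all probe sets 15.5% were called lower and 16.9% higher in T, 32.4% in either direction. In PT these shares were 18.0%, 17.9% and 35.9%. None of the 10 genes was called higher in either line, nor did any have a higher value at an unadjusted p under 0.05. The median log2 difference of the 10 genes was -1.57 in T and -1.10 in PT, against 0.01 and 0.08 over all probe sets. The 10 genes were chosen with earlier results of these data known, so these counts and medians are descriptions and no test of the set. Part of these counts comes from values below background: 2 of the 6 calls in T and 3 of the 7 in PT had both groups at background, where the data allow a difference in signal but no fold. Probe sets at background in both groups were called lower in 8.40% of cases in T and in 9.63% in PT, and those above background on both mVec arrays in 31.5% and 36.7%. Without the first mVec array the PT count was 4, as Ccl5, Ccl7 and Il6 no longer passed. The T and PT differences share the mVec arrays and are not independent. With 2 arrays per line, values without overlap were common. Over all probe sets, 61.6% did not overlap between T and mVec, 64.8% between PT and mVec, and 50.1% between T and PT. Among the 10 genes these were 6, 7 and 7. Lack of overlap below is therefore a description of the values only.

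**Figure D2:**
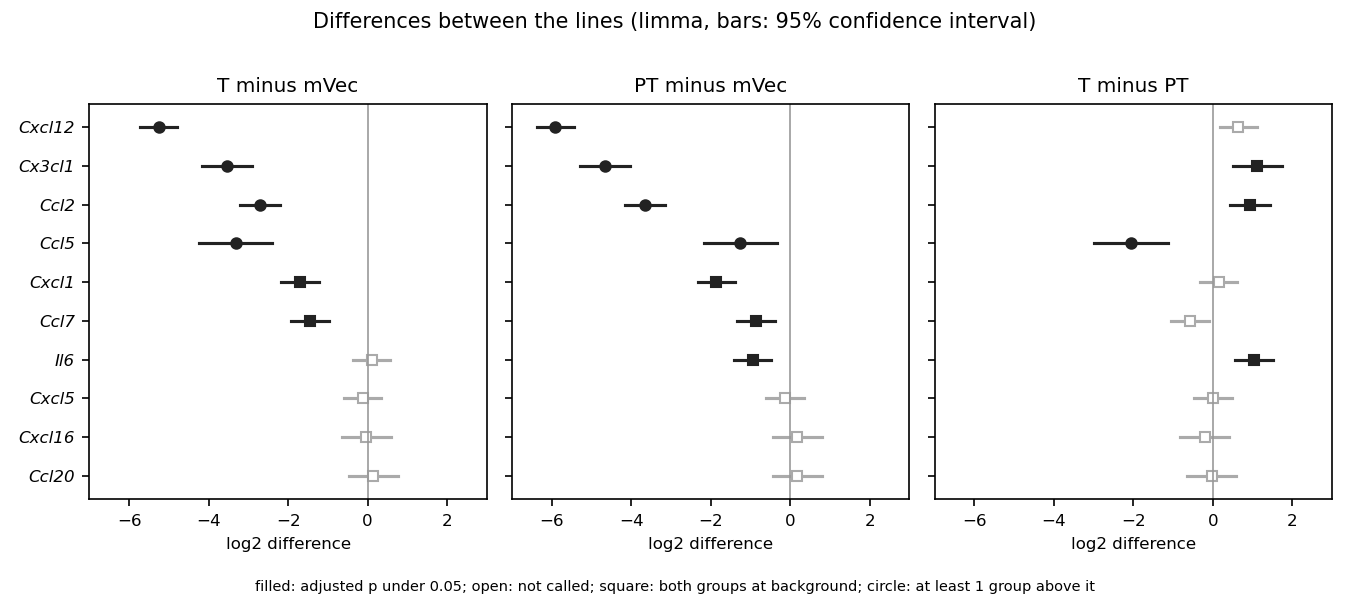
Log2 difference of each gene (horizontal axis) in the 3 comparisons of lines, with 95% confidence intervals from limma. Filled symbols passed the adjusted threshold and squares mark genes at background in both groups; against mVec the filled symbols all lie below 0, from -0.86 (Ccl7 in PT) to -5.91 (Cxcl12 in PT).

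Cxcl12, the ligand of Cxcr4 and of the scavenging receptor Ackr3, was lower in both Kit lines than in mVec. Its log2 values were 13.54 and 13.36 in mVec, 8.16 and 8.22 in T, and 7.43 and 7.67 in PT. Both mVec arrays stood far above the others, and all 4 Kit-line arrays were below their background limits. Cxcl12 was at least 24.6-fold lower in T than in mVec (log2 difference -5.26 ± 0.21 SE, limma adjusted p = 1.2e-07). In PT it was at least 21.7-fold lower (-5.91 ± 0.21, adjusted p = 4.58e-08). On the mVec arrays 99.2% and 99.1% of the negative controls had lower values than Cxcl12. T lay 0.64 ± 0.21 above PT without overlap, both lines at background, and the difference did not pass (adjusted p = 0.0962). It passed when probe sets at background in every group were left out of the adjustment (0.0283). Cxcl12 stays in that fit only through its mVec values, which are no part of this comparison, so that call adds no support. With values raised to the background limit the difference was -0.18.

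Cx3cl1 encodes fractalkine, a chemokine made as a membrane-anchored adhesion molecule and shed to act on Cx3cr1. The mVec arrays read 11.96 and 11.69, the T arrays 7.90 and 8.67, and the PT arrays 7.03 and 7.30. The mVec values were the highest, the PT values the lowest, and the 3 lines did not overlap. Cx3cl1 was at least 7.95-fold lower in T than in mVec (-3.54 ± 0.28, adjusted p = 7.38e-06), and PT was at least 7.03-fold lower (-4.66 ± 0.28, adjusted p = 9.03e-07). Its neighbours in the RefSeq gene order are the chemokine genes Ccl22 and Ccl17, neither of which was above background on any array.

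Ccl2 and Ccl7, neighbouring genes of the monocyte chemoattractant family whose products act on Ccr2, both had their highest values in mVec. Ccl2 read 10.70 and 10.64 in mVec, 7.85 and 8.08 in T, and 7.25 and 6.80 in PT. The mVec arrays were above background and the Kit-line arrays below it, with no overlap between the 3 lines. Relative to mVec, Ccl2 was at least 3.58-fold lower in T (-2.71 ± 0.23, adjusted p = 1.17e-05). The PT decrease was at least 3.16-fold (-3.65 ± 0.23, adjusted p = 1.17e-06). Ccl7 values were 6.81 and 6.70 in mVec, 5.50 and 5.12 in T, and 5.90 and 5.89 in PT. All of these lie under the limits, mVec highest and T lowest. The Ccl7 difference was -1.44 ± 0.21 in T (adjusted p = 0.000516) and -0.86 ± 0.21 in PT (adjusted p = 0.00995). The PT call was lost after quantile normalization (adjusted p = 0.063) and without the first mVec array (0.0724).
Ccl11, encoding eotaxin, is the next gene of this cluster and was named after its values were seen. It read 7.96 and 7.51 in mVec and 5.31 to 5.79 on the Kit-line arrays, again under the limits. Its difference was -2.23 ± 0.24 in T (adjusted p = 6.42e-05) and -2.02 ± 0.24 in PT (adjusted p = 9.41e-05). Ccl12, after Ccl11 in the cluster, was called in neither line, at -0.42 in T and -0.66 in PT.

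Ccl5 (RANTES), which draws lymphocytes and monocytes, was the member whose lower values in T and PT differed most. It read 11.21 and 11.68 in mVec, 9.83 and 10.53 in PT, and 7.47 and 8.78 in T. The order mVec, PT, T held without overlap, and the SD of the T arrays, 0.93, was the widest of any member in any line. Ccl5 was lower in T than in mVec (-3.32 ± 0.41, adjusted p = 0.00015), with T above background on 1 of 2 arrays. That difference was -2.59 with values raised to the background limit, -2.66 without the first T array and -3.98 without the second. It was 2.40-fold lower in PT than in mVec (-1.26 ± 0.41, adjusted p = 0.0367). The PT call was lost when arrays were centred on their medians (-1.07, adjusted p = 0.0632), without the first PT array (-0.91, 0.244), and without the first (-1.49, 0.0558) or the second mVec array (-1.03, 0.183).

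Cxcl1 and Cxcl5, neutrophil chemoattractants acting on Cxcr2, were under the limit on every array. Cxcl1 read 6.69 and 7.0 in mVec, 5.17 and 5.11 in T, and 5.01 and 4.96 in PT. The mVec values were the highest, and the Kit lines lay close to each other. The Cxcl1 difference was -1.70 ± 0.21 in T (adjusted p = 0.000138) and -1.86 ± 0.21 in PT (adjusted p = 5.82e-05), and the T minus PT difference did not pass (0.16, 95% confidence interval -0.31 to 0.62). Cxcl5 values ran from 3.56 to 3.90 over the 6 arrays, with all lines overlapping. The Cxcl5 difference from mVec was -0.12 in T (interval -0.60 to 0.35) and -0.13 in PT (-0.61 to 0.35). Of the chemokine genes beside Cxcl1, Cxcl2 and Cxcl3 were called in no comparison. Cxcl15, under the limits on every array, was called lower in T (-1.05 ± 0.28, adjusted p = 0.0146) and in PT (-0.81 ± 0.28, adjusted p = 0.0442).

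Cxcl16, a membrane-bound ligand of Cxcr6, and Ccl20, the ligand of Ccr6, did not separate the lines. Cxcl16 ran from 5.89 to 6.63 and Ccl20 from 5.85 to 6.59 over the 6 arrays, all under the limits, and for each gene the 3 lines overlapped. The Cxcl16 difference from mVec was -0.03 in T (interval -0.64 to 0.59) and 0.18 in PT (-0.44 to 0.79). For Ccl20 it was 0.15 in T (-0.46 to 0.77) and 0.17 in PT (-0.44 to 0.79).

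Il6 was under the background limit on every array. Its log2 values were 6.40 and 6.20 in mVec, 6.50 and 6.29 in T, and 5.29 and 5.42 in PT. T overlapped mVec, and both PT arrays were lower than the other 4. Between 54.7% and 76.4% of the negative controls had values below that of Il6, depending on the array. The T difference was 0.10 ± 0.21 (adjusted p = 0.799, interval -0.37 to 0.56). The PT difference was -0.94 ± 0.21 (adjusted p = 0.00497), and without the first mVec array it was -0.84 and did not pass (0.0512). With all values under the limit, no fold is given.

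Between the Kit lines, 3 of the 10 genes were called higher in T and 1 lower, where 5.67% of all probe sets were called higher, 2.70% lower and 8.36% in either direction. Ccl5 was the member lower in T (-2.06 ± 0.41, adjusted p = 0.0161, and -1.33 with values raised to the background limit). Ccl2 (0.94 ± 0.23, adjusted p = 0.0343), Cx3cl1 (1.12 ± 0.28, adjusted p = 0.0385) and Il6 (1.04 ± 0.21, adjusted p = 0.0164) were higher in T, in each case with both lines at background. Of probe sets at background in both Kit lines, 2.91% were called higher in T. The median over the 10 genes was 0.08, against -0.04 over all probe sets.
Each of the 4 calls depended on single arrays, and with 1 array left out 0 or 1 genes were called higher and 0 or 1 lower. The Ccl5 difference did not pass without the first T array (-1.40, adjusted p = 0.0515), the first PT array (-2.41, 0.0556) or the second PT array (-1.71, 0.111). Ccl2 passed in none of the 6 fits that left out 1 array (adjusted p 0.0548 to 0.165). Cx3cl1 passed in 1 of these, without the first T array (1.5, adjusted p = 0.019), and lay between 0.74 and 1.26 in the others. Il6 was lost without either T array or either PT array, with values between 0.93 and 1.14 and adjusted p up to 0.11.

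Chemokine receptors were scarcely detected. Of 22 measured, 21 were above background on no array, among them those of the genes above, Cxcr4, Cxcr2, Ccr2, Cx3cr1, Cxcr6 and Ccr6. The exception was Ackr3, the scavenging receptor that removes Cxcl12, at 10.48 and 9.81 in mVec, 7.26 and 7.69 in T, and 6.35 and 7.01 in PT. Ackr3 was above background on both mVec arrays and on no Kit-line array. The decrease was at least 2.49-fold in T (-2.67 ± 0.31, adjusted p = 9.71e-05) and at least 2.20-fold in PT (-3.47 ± 0.31, adjusted p = 1.21e-05). No other receptor was called in any of the 3 comparisons.

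Of 29 other chemokines, 27 were above background on no array. In T, 1 was called higher and 5 lower, and in PT 3 higher and 4 lower, with medians of -0.14 and -0.03. In each line 5 of these calls had both groups at background, among them every lower call. Over all probe sets 16.9% were called higher and 15.5% lower in T, and 17.9% and 18.0% in PT. Ccl25, the ligand of Ccr9, was lowest in mVec, at 6.52 and 6.49, against 8.54 and 8.89 in T, and 9.70 and 9.49 in PT. The 3 lines did not overlap, and PT was highest. Ccl25 was at least 1.51-fold higher in PT than in mVec (3.09 ± 0.22, adjusted p = 2.48e-06). In T the signal difference was 2.20 ± 0.22 (adjusted p = 3.24e-05), but 1 of 2 T arrays was above its limit and no fold bound above 1 resulted. With values raised to the limit it was -0.09. Cxcl10, an interferon-induced ligand of Cxcr3, read 8.99 and 9.11 in mVec, 9.22 and 9.78 in T, and 10.24 and 10.11 in PT. It was 2.18-fold higher in PT (1.13 ± 0.24, adjusted p = 0.00383), while the T difference of 0.45 did not pass (0.199). Both mVec values of Cxcl10 lay close to the limits (9.06 and 8.95), with 1 of the 2 arrays above.

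Of 17 measured genes of the IL-6 family and its signalling, 10 were above background on at least 1 array and 7 on none. In this list 2 were called higher and 9 lower in each Kit line, with medians of -0.67 in T and -0.64 in PT. Over all probe sets 32.4% were called in T and 35.9% in PT, in either direction. Of the probe sets above background in at least 1 group, tested alone, 71.2% and 75% were called. The counts of this list and of the lists below are to be read against these shares. The shares of 71.2% and 75% cover detected probe sets only, while list counts and medians include genes at background unless stated otherwise. Il6st, encoding gp130, read 15.92 and 15.56 in mVec, 14.76 and 14.47 in T, and 14.83 and 14.62 in PT. Both Kit lines lay under mVec and overlapped each other, 2.18-fold lower in T (-1.13, adjusted p = 0.00338) and 2.02-fold in PT (-1.02, adjusted p = 0.00534, lost at 0.0604 without the first mVec array). Il6ra, the chain that binds Il6 itself, read 8.25 and 8.26 in mVec, 9.02 and 9.32 in T, and 9.07 and 9.6 in PT. It exceeded mVec by at least 1.12-fold in T (0.92, adjusted p = 0.0146) and at least 1.26-fold in PT (1.08, 0.00522), with both mVec arrays under the limit and 1 of 2 PT arrays above it. The T call was lost without the second T array (0.0878), the first mVec array (0.074) or the second (0.0685), and with values raised to the limit both calls were lost (0.17, adjusted p = 0.359 in T, and 0.38, 0.117 in PT). Il6st and Il6ra were named after their values were seen.

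Receptors for related cytokines were lower too. Lifr, the receptor of leukaemia inhibitory factor, read 11.47 and 11.51 in mVec and 6.01 to 6.84 on the Kit-line arrays, lower by at least 6.30-fold in T (-4.69, adjusted p = 2.85e-07) and 5.57-fold in PT (-5.29, adjusted p = 9.61e-08). Its ligand Lif rose, by at least 1.60-fold in T (2.24, adjusted p = 4.32e-05) and at least 3.14-fold in PT (3.22, adjusted p = 2.84e-06). The oncostatin M receptor Osmr was 4.97-fold lower in T and 5.94-fold in PT (adjusted p = 2.39e-05 and 8.39e-06), with 1 of 2 PT arrays above background. For the ciliary neurotrophic factor receptor Cntfr the decrease was at least 1.57-fold in T and 1.39-fold in PT (adjusted p = 1.21e-06 and 8.34e-07).
Among the intracellular parts of the pathway, the kinase Tyk2 was lower by at least 3.16-fold in T and 2.79-fold in PT (adjusted p = 6.27e-06 and 6.17e-07). The transcription factor Stat3 read 13.51 and 13.54 in mVec, 11.03 and 11.52 in T, and 11.32 and 11.55 in PT. It stayed far above background in every line, 4.76-fold lower in T (-2.25, adjusted p = 4.26e-05) and 4.25-fold lower in PT (-2.09, adjusted p = 5.31e-05). Jak2 was 1.93-fold higher in T than in PT (0.95, adjusted p = 0.0272), a call lost without the second T array (0.138) or either PT array (0.102 and 0.124).

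**Figure D3:**
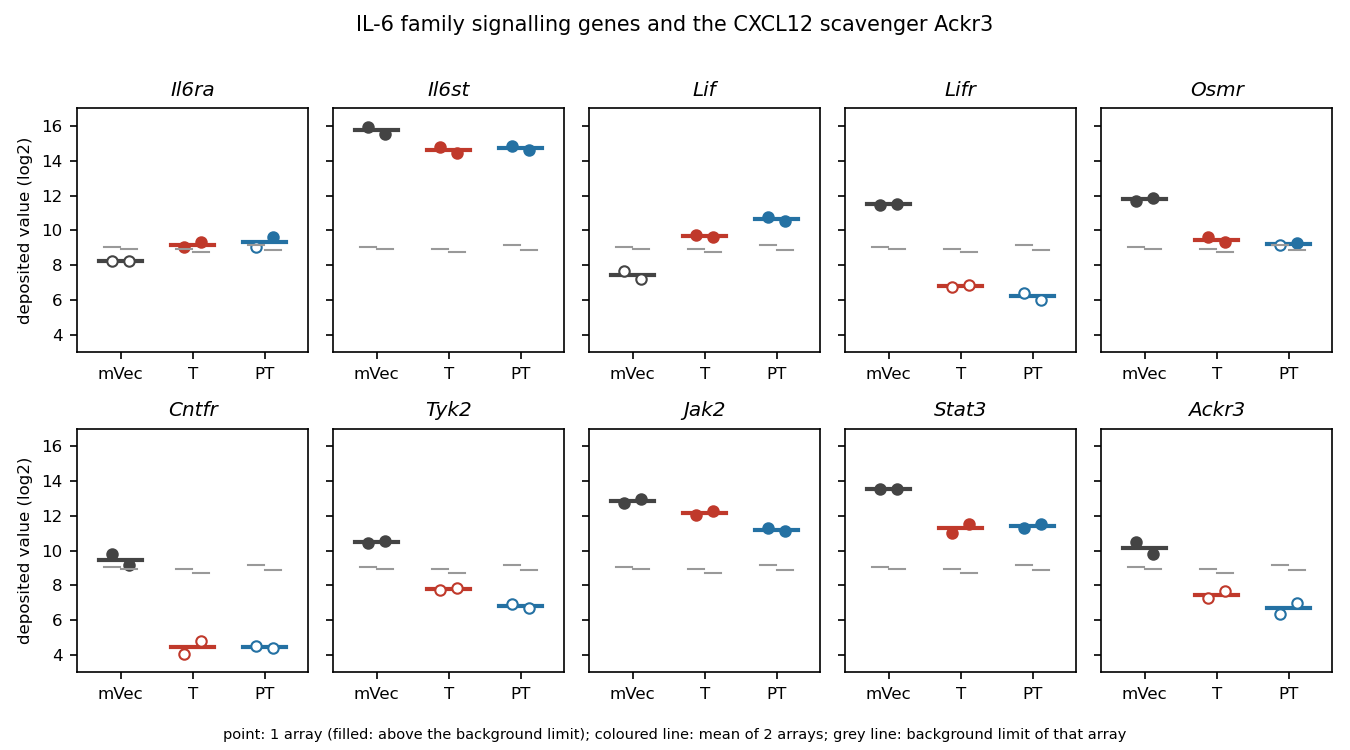
Deposited log2 value (vertical axis) on the 6 arrays by line (horizontal axis) for 9 genes of IL-6 family signalling and for Ackr3; points, coloured means and grey background limits as in the plot of the members. Il6ra and Lif are higher in both Kit lines than in mVec, and Il6st, Lifr, Osmr, Cntfr, Tyk2, Jak2, Stat3 and Ackr3 are lower.

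NF-kappaB genes moved in both directions. Of 16 subunits and regulators, 8 were called higher and 3 lower in T, and 7 higher and 4 lower in PT (medians 0.67 and 0.52). Of these calls, 3 in T and 2 in PT had both groups at background. The rest were 6 higher and 2 lower in T, and 6 higher and 3 lower in PT. Nfkb2, the precursor of the p52 subunit, read 7.45 and 6.95 in mVec, 9.64 and 9.81 in T, and 10.52 and 10.84 in PT, a rise of at least 1.65-fold in T (adjusted p = 2.73e-05) and at least 3.20-fold in PT (2.33e-06). Traf1, an adaptor of TNF receptors, read 5.40 and 5.37 in mVec, 8.86 and 8.92 in T, and 10.65 and 11.29 in PT. The lines did not overlap, PT being at least 3.90-fold above mVec (5.58, adjusted p = 1.5e-07) and 4.22-fold above T (adjusted p = 0.00188). In T, 1 of 2 arrays was above background.
Inhibitors of NF-kappaB went opposite ways. Nfkbib, encoding IkappaB-beta, was 11.5-fold higher in T and 11.1-fold in PT (adjusted p = 3.37e-06 and 2.46e-06). Nfkbia, encoding IkappaB-alpha and itself an NF-kappaB target, was 4.15-fold lower in T and 6.05-fold lower in PT (adjusted p = 3.97e-05 and 5.87e-06). Nfkbiz, the nuclear cofactor IkappaB-zeta required for Il6 induction, was lower by at least 2.6-fold in T and 2.30-fold in PT (adjusted p = 7.34e-05 and 3.56e-05). Nfkb1 and Chuk were not analysed here.

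Receptors, ligands and adaptors that feed into NF-kappaB from IL-1, TNF, IL-17 and Toll-like receptors numbered 23. In T, 6 were called higher and 8 lower, and in PT 7 higher and 11 lower (medians -0.03 and 0.08). In each comparison 16 of them were above background in the Kit line or mVec. Among those, 4 were called higher and 8 lower in T, and 5 higher and 11 lower in PT (medians -0.54 and -1.26). The alarmin Il33 was lower by at least 3.14-fold in T and 2.78-fold in PT. The cytokine Il18 was lower by at least 3.36-fold and 2.97-fold. Tlr3, a sensor of double-stranded RNA, was 8.62-fold lower in T, and PT was at least 9.17-fold lower. The adaptor Traf2 was higher, at least 3.98-fold in T and at least 6.47-fold in PT. Over all probe sets, 5.67% were called higher in T than in PT and 2.70% lower. Among probe sets above background in at least 1 group, tested alone, 29.7% were called in either direction. Of the genes in this list, 6 were called higher in T than in PT and 1 lower, 1 of these with both Kit lines at background. They include the IL-1 receptor chains Il1r1 (3.22-fold, adjusted p = 0.00247) and Il1rap (at least 1.41-fold, 0.00792, and 0.0675 without the first PT array).

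C/EBP transcription factors and regulators of cytokine mRNA decay also differed. Of 11 C/EBP factors and decay regulators, 4 were called higher and 4 lower in each Kit line (medians -0.24 in T and -0.12 in PT). In each line 2 of these calls had both groups at background, and the rest were 2 higher and 4 lower. Zfp36 (tristetraprolin), which promotes the decay of AU-rich cytokine mRNAs, read 14.90 and 15.26 in mVec, 9.18 and 8.71 in T, and 8.94 and 9.36 in PT. The Kit lines overlapped each other far below mVec, 70.2-fold lower in T (-6.13 ± 0.26, adjusted p = 1.76e-07) and 61.1-fold lower in PT (-5.93 ± 0.26, adjusted p = 1.39e-07), each with 1 of 2 arrays above background. Its relative Zfp36l1 was 5.69-fold lower in T and 7.87-fold in PT. The stabilizing factor Elavl1 (HuR) was 3.31-fold higher in T and 3.74-fold in PT. Cebpd, a C/EBP factor of inflammatory genes, was lower by at least 6.33-fold in T and 5.59-fold in PT, while Cebpg was 3.84-fold and 5.40-fold higher.

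**Figure D4:**
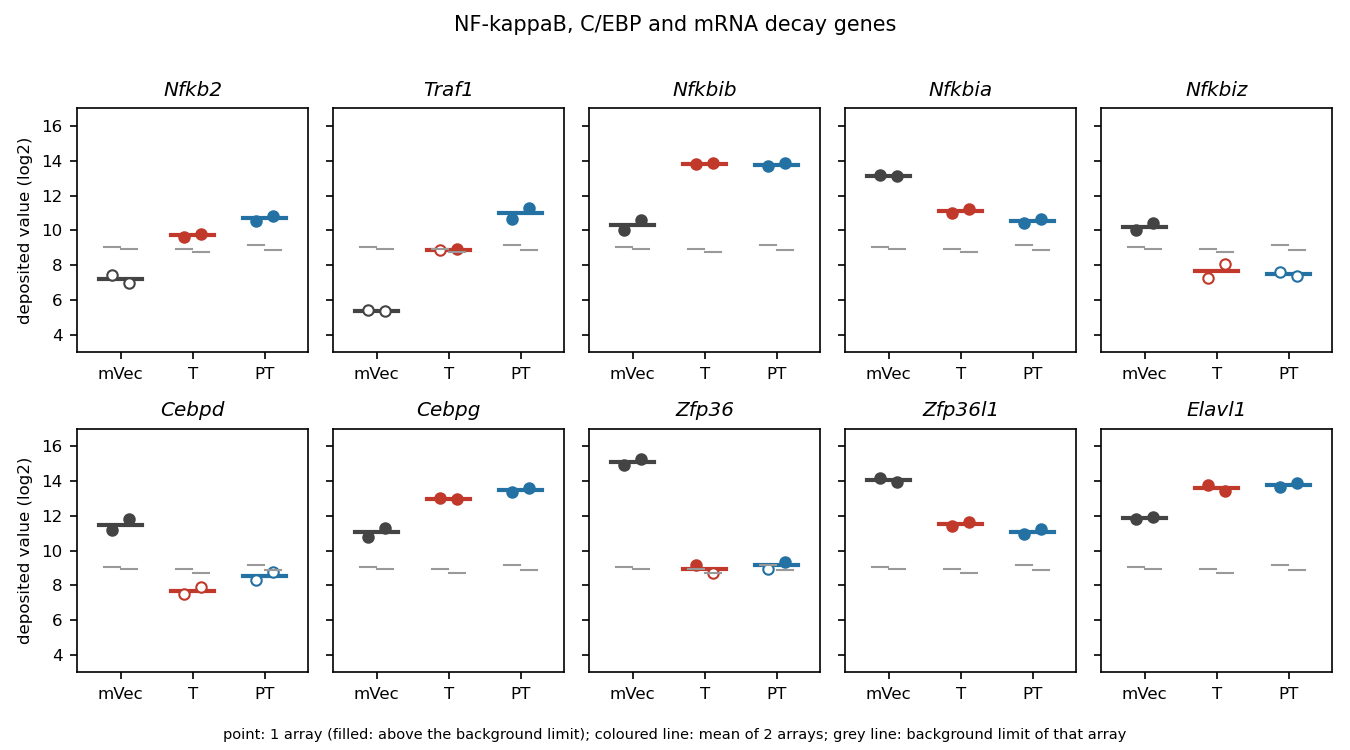
Deposited log2 value (vertical axis) on the 6 arrays by line (horizontal axis) for 5 NF-kappaB genes (top) and 5 C/EBP and mRNA decay genes (bottom); points, coloured means and grey background limits as in the plot of the members. Nfkb2, Traf1, Nfkbib, Cebpg and Elavl1 are higher in both Kit lines than in mVec, and Nfkbia, Nfkbiz, Cebpd, Zfp36 and Zfp36l1 are lower.

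Of 9 enzymes and cofactors that shed or trim chemokines, 1 was called higher and 4 lower in each Kit line (medians -0.43 in T and -1.06 in PT). The carboxypeptidase Cpm was lower by at least 61.9-fold in T and 54.6-fold in PT. Adam10, a sheddase of Cx3cl1 and Cxcl16, was 3.16-fold lower in T (adjusted p = 0.000146) and 4.43-fold in PT (1.89e-05), and its kin Adam17 was called in neither line. Timp3, an inhibitor of these sheddases, was 3.05-fold and 3.68-fold lower, with 1 of 2 PT arrays above background. Rhbdf2, which brings Adam17 to the cell surface, was at least 1.53-fold higher in T and at least 2.80-fold in PT.

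Other NF-kappaB targets of inflammation were mixed. Of 13 measured, 3 were called higher and 4 lower in T, and 2 higher and 5 lower in PT (medians -0.23 and -0.21). In each comparison 8 of them were above background in the Kit line or mVec. Among those, 3 were called higher and 3 lower in T, and 2 higher and 4 lower in PT (medians -0.21 and -0.90). The matrix proteases Mmp3 (at least 56.5-fold in T, at least 49.9-fold in PT) and Mmp13 (at least 18.5-fold and at least 16.4-fold) were lower, as was the adhesion molecule Vcam1 (10.5-fold and 22.6-fold). The mitochondrial superoxide dismutase Sod2 was higher, by 3.95-fold in T and 3.92-fold in PT. Lcn2, encoding lipocalin, was 1.93-fold higher in T (adjusted p = 0.00544) and not called in PT, and T exceeded PT by 2.26-fold (0.00928, and 0.0512 or 0.0632 without a PT array).
Ccl5 is also an interferon-responsive gene. Of 11 reference interferon genes, all 11 were called lower in both Kit lines (medians -6.03 in T and -5.80 in PT), and 10 of them were above background on both mVec arrays and on no Kit-line array. The part of these genes in the Ccl5 values was not tested.

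The deposited scale sets the sign of small differences. Centring each array on its median would raise all differences of T from mVec by 0.18 and of PT by 0.19, and it moves the share of higher calls among all calls from 52.3% to 62.3% in T and from 49.9% to 60.3% in PT. After centring, the 6 members called lower in T were still called, and in PT all but Ccl5.

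Genes with the most similar profile over the 6 arrays were sought for the 4 members above background, by the root mean square difference of values centred per gene, among 7541 genes. For Cxcl12 these were Boc (0.117), Adamts1 (0.181) and Pcdhb20 (0.187). The genes nearest Cx3cl1 were Slc8b1 (0.160), Tril (0.175) and Dhrs1 (0.180). Those nearest Ccl2 were Tyk2 (0.092), Pik3r3 (0.119) and Dag1 (0.126). For Ccl5 the nearest, at larger distances, were Itga6 (0.560), Tuft1 (0.613) and Gfra1 (0.622). These are descriptions over 6 arrays of 3 lines.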

How the data were processed

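RNA of 3 melan-a lines was measured on 6 Clariom S arrays, 2 per line. Per the labels, RNA was taken with RNeasy columns, biotin-labelled and run by a core facility. The values deposited by the authors are log2 expression, 1 per probe set and array, used as they stand. How they were made (software, background correction, normalization, build) was not given in the sources used here. That the unit is log2 follows from the range of the values. Of 28846 probe sets, 22206 are gene probe sets and were tested. The other 6640 are controls, of which 5222 are negative controls. Gene symbols come from the platform annotation (19572 probe sets with 1 symbol, 2634 with none).

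All 6 arrays entered 1 limma 3.58.1 model (R 4.3.3, statmod 1.5.0) with a mean per line (residual degrees of freedom 3, prior 6.36). P-values are two-sided and Benjamini-Hochberg adjusted over the 22206 probe sets within a comparison, and a gene was called at an adjusted p under 0.05. The fit was tested on simulated data. A line is at background when neither array exceeds the 95th percentile of its negative controls. When 1 line is at background, the fold is a lower bound: the mean of the bright line against the mean, over the arrays of the dim line, of the limit or the measured value, whichever is higher. Fold changes come from the log2 values. No precision in counts applies to arrays, so their number limits it. Replicate numbers did not pair arrays (correlations of deviations 0.082, 0.043 and 0.040) and were not used.

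Named are the 10 members, up to 5 genes per list and comparison with the largest difference (called, no overlap between arrays, above background in at least 1 group), and the 3 genes nearest each detected member. Further genes were named after their values were seen: Il6ra, Il6st and Ccl11, the neighbours Ccl12, Ccl17, Ccl22, Cxcl2, Cxcl3 and Cxcl15, the receptors of the members, and Adam17, Kit, Tyr, Ptprc and Col1a2. The members and lists were chosen with earlier results of these data known. Listed genes not found under 1 symbol are not analysed here. The alternatives were centring, quantile normalization, a filter on low values, raising values to the background limit, trended and robust moderation, fits on 2 groups, a replicate block, each array left out and a 99th percentile limit.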

Additional observations from a re-analysis of the deposited data

Results flagged for a closer look

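For 4 members the difference from mVec was not the same in T as in PT, by the limma test of T minus PT (adjusted p 0.0161 to 0.0385). For Ccl5 the T effect minus the PT effect was -2.06 on the log2 scale: Ccl5 was lower in T than in PT, and in both it was lower than in mVec. For Cx3cl1 this value was 1.12 and for Ccl2 0.94, with both Kit lines at background. For Il6 it was 1.04, with all 3 lines at background. Each of the 4 was lost in at least 3 of the 6 fits that left out 1 array.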

How the results depend on the processing

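Of the 30 member differences, 19 stayed on their side of the threshold in every alternative tried with no called value changing sign. Of these, 8 also kept their sign, and the other 11, none of them called, did not. Of 106 differences of named pathway genes, 87 kept both. In 402 recomputed member values, 31 called ones stayed on their side of 0 but no longer passed, 1 gained a call, and 30 changed sign, 6 of them called in the reported fit. The 6 calls of lower members in T minus mVec stayed at 6 whichever array was left out, and became 4 with probe sets at background in every group left out (Cxcl1 and Ccl7 were then not tested) and 4 with values raised to the background limit (Cxcl1 and Ccl7 at -0.17, adjusted p = 0.359). The 7 in PT minus mVec became 4 with probe sets at background in every group left out (the other 3 were then not tested), 4 with values raised to the background limit, and 4 to 7 with 1 array left out. The 3 members higher in T than in PT became 1 after quantile normalization, 0 with values raised to the limit, 1 in the fit of these 2 lines alone, and 0 to 1 with 1 array left out, and the 1 lower member became 0 to 1. Quantile normalization gave Ccl2 0.70 (adjusted p = 0.104) and Cx3cl1 0.88 (0.0774) in T minus PT. The cause of these losses was not tested. Raising values to the limit replaces genes at background by the limits themselves, which turned Cxcl1, Ccl7, Il6 and Ccl11 in PT minus mVec to 0.01, Ccl2, Cx3cl1 and Il6 in T minus PT to -0.18, and Ccl25 and Traf1 in T minus mVec to -0.09 and -0.08. A limit at the 99th percentile left 1 member above background in mVec in place of 4. The replicate block, a fit with the replicate number as a term, changed no member's call, and Ccl2 in T minus PT was 0.94 there. It removed 2 calls of pathway genes in T minus PT, Ccl25 (-0.88, adjusted p = 0.05) and Nfkb2 (-0.96, 0.0585). Fits without 1 array of a line assume that its remaining array varies like those of the other lines. Signal near the negative controls limits what can be said of Cxcl1, Ccl7, Ccl20, Cxcl5, Cxcl16 and Il6.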
